A study of Homo sapiens with 4 samples.

Results

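The regions described here are the PR100 crosslink clusters that lay deep inside introns. A cluster was chosen by the annotation around its summit, the position with the most cDNAs in the 4 libraries together (the leftmost where positions tied). The summit had to lie in an annotated gene, in no exon of any transcript of that strand, and more than 200 nt from every exon edge of that strand. Of 5596 pooled clusters, 5408 lay on the autosomes and chromosome X, and 718 of these (13.3%) obeyed the rule. A further 3653 clusters had their summit in an exon, 167 lay in an intron within 200 nt of an exon edge, and 870 lay outside genes of their strand. Since the pooled counts selected the members, their counts are given as a description. All members had an intron of the host gene at the summit, so the name holds by annotation, but for 124 of them the start of the cDNA also resembled ribosomal RNA, as described below.

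PR100-FLAG is a chain of 100 proline-arginine dipeptides with a triple FLAG tag, one of the dipeptide repeat proteins made from the expanded C9orf72 repeat in amyotrophic lateral sclerosis and frontotemporal dementia. It was expressed from a doxycycline-inducible construct (150 ng/ml for 24 h) in transiently transfected HEK293T cells, a human embryonic kidney line, so the protein was overexpressed. All cells were crosslinked with UV light at 160 mJ/cm2, and RNA bound to the FLAG-tagged protein was read by iiCLIP. Of the 4 libraries, 3 (replicates 1 to 3) had their complexes run on SDS-PAGE, while replicate 4 was purified on beads, so what is particular to this library and to its purification cannot be told apart. The random barcode of the cDNA primer was 5 nt in replicate 3 and 7 nt in the others. The labels do not say whether the replicates came from separate cultures, so the spread between them may be technical, and controls were not analysed here.

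In iiCLIP, reverse transcription often stops at the crosslinked nucleotide, so the position just before the cDNA start marks the contact. Introns are removed from the pre-mRNA in the nucleus and their interior is usually degraded, so a cDNA from the interior is a sign of nascent or unspliced RNA, or of another RNA whose sequence resembles that stretch. Ribosomal RNA is cut from the 45S precursor in the nucleolus, where arginine-rich dipeptide repeat proteins are known to gather.

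The libraries held 334057, 604816, 125694 and 179636 cDNAs in replicates 1 to 4. Positions deep in introns, inside clusters or not, held 34.6% ± 7.97 of them (SD, n = 4). The members held 2641, 9531, 4153 and 1904 cDNAs. Their share was 0.791% in replicate 1 (95% exact binomial interval 0.761% to 0.821%), 1.58% in replicate 2 (1.54% to 1.61%), 3.3% in replicate 3 (3.21% to 3.40%) and 1.06% for the beads library (1.01% to 1.11%), or 1.68% ± 1.13 (SD, n = 4). The intervals cover counting error only. Because the pooled counts of these libraries chose the members, the shares describe the libraries, and their differences were not tested. Replicate 3 gave 10.1% of all cDNAs and 22.8% of the members' cDNAs, whereas replicate 1 gave 26.8% and 14.5%. Clusters of every place on these chromosomes held 21799, 65399, 20126 and 20093 cDNAs in replicates 1 to 4. Replicate 3 thus had nearly as many cluster cDNAs as replicate 1 from a smaller library, so its excess was not particular to the members. Members gave 12.1%, 14.6%, 20.6% and 9.48% of these cluster cDNAs.

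Members fell into a few kinds by sequence. These kinds were defined after the values had been seen, so they carry no test. The 20 nt after the summit, where the cDNA starts, were compared without gaps with the 45S pre-rRNA of chromosome 21 (RNA45SN1), and 17 or more identical bases were called a match. First came 33 clusters (4.6% of members) inside a pair of lncRNA genes that overlap ribosomal DNA repeats on chromosome 21, ENSG00000280441 and ENSG00000278996. A further 54 clusters (7.52%) had a run of 12 or more U in the window from 5 nt before to 30 nt after the summit, and 9 had such a run of A, C or G. Elsewhere, 86 clusters (12%) in 73 genes had a 45S match. The other 536 clusters (74.7%) had neither.

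The windows of members with a 45S match show the likeness base by base. Each genomic window is printed 5′ to 3′ on the gene's strand (GRCh38), with the crosslinked nucleotide at the sixth base, and is followed by the aligned 45S stretch from chromosome 21. Capitals mark the bases of the 20 nt after the summit that are identical to 45S. RYR2, GCNT1, HFM1 and PID1 continued in the same way beyond the 20 nt, while TP63, GATA2-AS1 and OBI1-AS1 did not.
RYR2 (chr1:237603156-237603191, plus strand): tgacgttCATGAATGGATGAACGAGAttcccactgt
45S stretch for RYR2 (chr21:8444953-8444972): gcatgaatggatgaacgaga
GCNT1 (chr9:76571736-76571771, plus strand): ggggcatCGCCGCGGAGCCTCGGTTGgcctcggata
45S stretch for GCNT1 (chr21:8445877-8445896): gcgccgcggagcctcggttg
HFM1 (chr1:91387563-91387598, minus strand): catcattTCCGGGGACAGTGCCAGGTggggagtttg
45S stretch for HFM1 (chr21:8445304-8445323): ctccggggacagtgccaggt
PID1 (chr2:229180970-229181005, minus strand): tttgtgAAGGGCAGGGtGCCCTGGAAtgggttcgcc
45S stretch for PID1 (chr21:8443786-8443805): aagggcagggcgccctggaa
TP63 (chr3:189794924-189794959, plus strand): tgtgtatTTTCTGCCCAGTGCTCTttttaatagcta
45S stretch for TP63 (chr21:8444834-8444853): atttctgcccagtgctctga
GATA2-AS1 (chr3:128498028-128498063, plus strand): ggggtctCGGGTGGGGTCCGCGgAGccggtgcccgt
45S stretch for GATA2-AS1 (chr21:8441580-8441599): acgggtggggtccgcgcagt
ANKRD30BL (chr2:132255637-132255672, minus strand): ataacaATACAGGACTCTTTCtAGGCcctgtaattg
OBI1-AS1 (chr13:78370129-78370164, plus strand): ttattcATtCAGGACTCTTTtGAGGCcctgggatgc
45S stretch for ANKRD30BL and OBI1-AS1 (chr21:8437404-8437423): atacaggactctttcgaggc
The last pair, on different chromosomes, started at the same base of 18S rRNA.

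Several of the largest members had no such ungapped match. Their windows are printed with the crosslinked nucleotide alone in capitals, because most of their cDNAs started at that 1 base.
LINC02669 (chr10:3495572-3495607, minus strand): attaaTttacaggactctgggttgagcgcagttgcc
CACNA2D3 (chr3:54993498-54993533, plus strand): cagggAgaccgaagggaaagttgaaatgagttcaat
ENSG00000255410 (chr11:6641880-6641915, plus strand): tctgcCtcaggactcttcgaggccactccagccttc
RPS6KA5 (chr14:90917912-90917947, minus strand): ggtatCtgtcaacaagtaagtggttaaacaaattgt
RSRP1 (chr1:25247894-25247929, minus strand): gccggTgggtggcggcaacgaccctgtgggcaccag
LEXM (chr1:54814397-54814432, plus strand): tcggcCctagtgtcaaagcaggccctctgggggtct
The longest exact stretch that the 20 nt after the summit shared with 45S was 11 nt in LINC02669, 15 nt in CACNA2D3, 10 nt in ENSG00000255410, 11 nt in RPS6KA5, 9 nt in RSRP1 and 13 nt in LEXM. CACNA2D3 and LEXM thus shared 12 nt or more with 45S while staying under 17 identical bases of 20. No gap was allowed in these comparisons, so a likeness with a missing or added base was not counted in any of the 6. The printed window of ENSG00000255410 shows such a likeness. From cagg to aggc it equals the 45S stretch printed for ANKRD30BL and OBI1-AS1, but with 1 T missing. Its 10 nt therefore understate its likeness to 45S. A search with gaps was not run for any member.

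**Figure D1:**
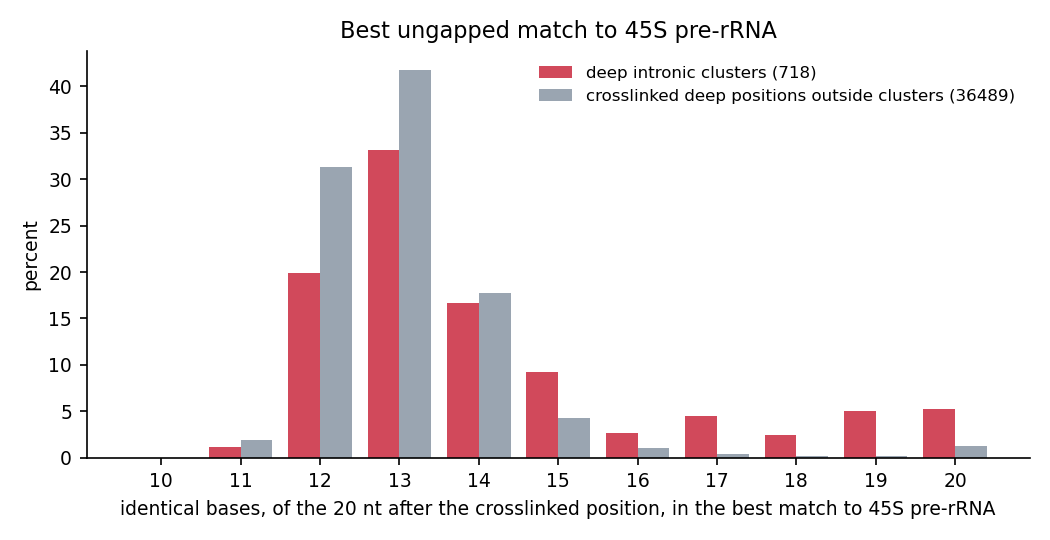
Best ungapped match to 45S pre-rRNA of the 20 nt after the crosslinked position. The x axis gives the number of identical bases and the y axis the percent of the 718 deep intronic clusters (red) or of the 36489 crosslinked deep positions outside clusters in the same genes (grey). Both sets peak at 13 identical bases, and the clusters lie above the other positions at each value from 15 to 20.

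For comparison, 36489 crosslinked positions that also lay deep in introns of the host genes but outside every cluster served as the reference. A 45S match outside the rDNA genes and without a run was found at 245 of them (0.671%), against 86 of the 718 members (12%). Each library's own cluster list, called by the authors from that library alone, gave the same order. In replicate 1, 8 of 49 deep intronic clusters (16.3%) had such a match against 0.254% of its reference positions. The shares were 41 of 202 (20.3%) against 0.955% in replicate 2, 16 of 136 (11.8%) against 2.57% in replicate 3, and 19 of 44 (43.2%) against 0.526% in replicate 4. The mean was 22.9% ± 13.97 of clusters and 1.08% ± 1.04 of reference positions (SD, n = 4), and every library's cluster share lay above every library's reference share. The match was not particular to deep intronic clusters. With rDNA genes and runs included, it was found in 17.3% of the 718 members and 25.4% of the 870 clusters outside genes. It was found in 7.78% of the 167 intronic clusters within 200 nt of an exon edge and 0.958% of exonic clusters.

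Of the 86 matches, 66 fell in the 28S part of the precursor, 18 in 18S, 2 in spacers and 0 in 5.8S. Identity was complete in 7, 19 of 20 bases in 32 and 17 or 18 bases in 47. For 66 of the 86 (76.7%) the 20 nt occurred once in the genome. These members held 346, 1598, 421 and 702 cDNAs in replicates 1 to 4, or 1036, 2642, 3349 and 3908 cDNAs scaled to a library total of 1000000 (CPM). Replicate 4, the beads library, had the highest level and replicate 1 the lowest. This kind gave 36.9% of the members' cDNAs in replicate 4 and 10.1% to 16.8% in the other libraries.

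The alignment was then carried on for the next 30 nt. In 31 of the 86 members at least 24 of these 30 bases were identical, and in the other 55 fewer were, down to 2. The 31 long matches had a median width of 44 nt, 8 crosslinked positions and 29 cDNAs, with a median of 33.0% of the cDNAs at the summit. The 55 short matches had a median width of 4 nt, 3 positions and 15 cDNAs, and 68.0% at the summit. By their medians the long matches were wider than the short ones, with exceptions on both sides. In ALG9, an endoplasmic reticulum mannosyltransferase gene, a member with 22 of 30 identical bases had 12 positions over 144 nt, and another with 28 of 30 had 3 positions over 3 nt.

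The cluster in RYR2, the calcium release channel of heart muscle, belonged to the long matches. It lay in an intron of 8650 nt (chr1:237602112-237610761), 1050 nt from the nearest exon, and held 29, 114, 22 and 47 cDNAs at 56 positions over 187 nt. All 30 of the next bases equalled 45S. GCNT1, a glycosyltransferase of core 2 O-glycans, had 22, 130, 22 and 19 cDNAs at 36 positions, again with 30 of 30 bases. PID1 and AAMDC also had 30 of 30, with 9, 48, 36 and 34 cDNAs in PID1 and 17, 63, 20 and 22 in the largest of 4 clusters in AAMDC. In CPM, RYR2 reached 178 ± 71.7, GCNT1 140 ± 67.1 and AAMDC 109 ± 45.1 (SD, n = 4), so none of these rested on a single library.

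TP63, which encodes the epithelial transcription factor p63, showed the short kind. Its cluster held 4, 33, 0 and 56 cDNAs at 2 adjacent positions, with 90 of 93 at the summit, and 7 of the next 30 bases were identical to 45S. RUNX2, a transcription factor of bone formation, had 1, 11, 0 and 28 cDNAs and 6 of 30. The scaffold protein gene IQGAP1 had 17, 39, 5 and 2 cDNAs at 2 positions and 7 of 30. In TP63 and RUNX2 the beads library was highest and replicate 3 had no cDNA, which allows up to 23.9 CPM (3 counts), whereas in IQGAP1 replicate 2 was highest at 64.5 CPM.

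Members in unrelated genes began at the same base of 45S. Position 8295 of the precursor, in 28S rRNA, was the aligned start of 8 members, in IQGAP1, MIR3681HG, LINC01237, DGKG, PCDH7, ENSG00000250406, ENSG00000251314 and TMLHE, with 152 cDNAs together. Positions 4248 and 4807, both in 18S rRNA, were each shared by 3 members. In ANKRD30BL all 5 members matched 18S rRNA, at 5 different positions, and held 16, 98, 24 and 26 cDNAs in replicates 1 to 4. All 4 members of AAMDC, all 3 of PHKB (a subunit of phosphorylase kinase) and all 3 of SLCO5A1 (an organic anion transporter family gene) matched 28S rRNA.

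The 33 members inside the chromosome 21 genes each had a 45S match, 20 in ENSG00000280441 and 13 in ENSG00000278996. They held 330, 1830, 437 and 406 cDNAs, or 988, 3026, 3477 and 2260 CPM, with replicate 1 lowest. The largest member of all lay in ENSG00000280441 (chr21:8443239-8443340), with 115, 499, 136 and 155 cDNAs at 49 positions, or 779 ± 311 CPM (SD, n = 4). Its window is shown because it had the highest mean CPM of the named members, and capitals again mark identity to 45S.
ENSG00000280441 (chr21:8443286-8443321, plus strand): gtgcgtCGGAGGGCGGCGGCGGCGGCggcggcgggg
These 20 nt occurred at 9 places in the genome. In the same gene, a member at chr21:8401761-8401796 held 34, 463, 52 and 35 cDNAs, and replicate 2 was highest there at 766 CPM. The annotated introns here overlap rRNA sequence, so these clusters are intronic by the transcript models alone.

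**Figure D2:**
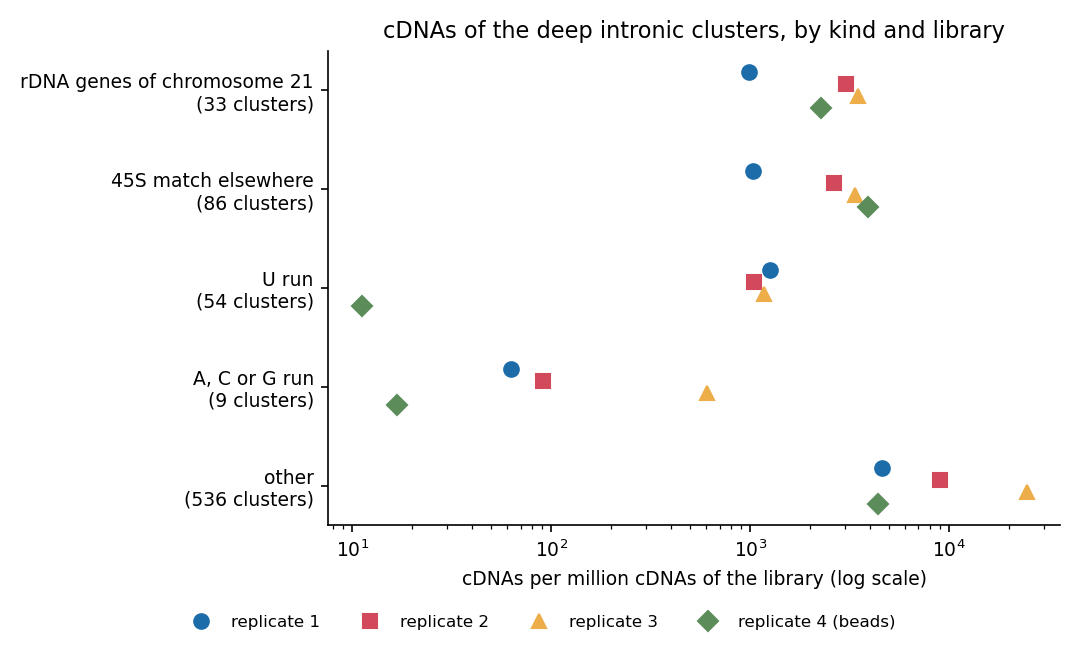
cDNAs of the 718 deep intronic clusters by sequence kind (rows) and library (points), in CPM on a log scale. The clusters with a U run lie near 1000 in the SDS-PAGE libraries and at 11.1 in the beads library, and the clusters with neither run nor match are highest in replicate 3.

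The clusters at U runs were a separate kind. All 54 lay in different genes, and in 43 of them replicates 1 and 2 together gave more cDNAs than replicates 3 and 4. This count is not scaled to depth, and replicates 1 and 2 held 26.8% and 48.6% of all cDNAs. The 54 members held 419, 628 and 148 cDNAs in the SDS-PAGE libraries and 2 in the beads library. On the CPM scale these were 1254 (95% exact Poisson interval 1137 to 1380), 1038 (959 to 1123), 1177 (995 to 1383) and 11.1 (1.35 to 40.2). These intervals too cover counting error only, in members that the pooled counts chose. Replicate 3 had no cDNA in 34 of the 54 members, so its level came from the remaining ones. Replicate 4 lay far below the SDS-PAGE libraries, and 52 of the 54 members had no cDNA in it. The same held for crosslinked positions outside clusters, which the rule did not use. A U run lay in the window of 3.01%, 3.02% and 2.68% of these positions in the SDS-PAGE libraries, and of 0.319% in the beads library (exact binomial interval 0.195% to 0.492%). Pooled clusters outside genes had a U run about as often as members, in 8.16% against 7.52%. The share was 2.4% of intronic clusters within 200 nt of an exon edge and 0.328% of exonic clusters.

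The member with the most cDNAs among them lay in the lncRNA gene ENSG00000287862 and held 50, 84, 0 and 0 cDNAs. ASIP, which encodes the agouti signalling protein, had 49, 76, 0 and 0. ENSG00000260351 had 39, 63, 0 and 1, and LINC00486 had 31, 31, 0 and 0. Replicates 1 and 2 carried these clusters, replicate 3 had no cDNA in them and replicate 4 had 1, in ENSG00000260351. One window is printed as an example, with the first unbroken run of 12 or more T in capitals (T for U, as in the genome).
LINC00486 (chr2:32866883-32866918, plus strand): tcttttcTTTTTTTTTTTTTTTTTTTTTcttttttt
The 20 nt after the summit of LINC00486 occurred at 137503 places in the genome.

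The other 536 members, with neither a run nor a 45S match, held 1525, 5420, 3071 and 791 cDNAs, or 4565, 8961, 24432 and 4403 CPM. Replicate 3 was highest and held more cDNAs than the other libraries together in 254 of them (47.4%). Replicate 2 led 146 in this way, replicate 1 led 44 and replicate 4 led 6, and no library led the remaining 86. The 254 had a median of 11 cDNAs at 2 positions, with 75% at the summit. In 69 of them (27.2%) the 20 nt occurred more than once in the genome, against 5.48% of those led by replicate 2, 13.6% by replicate 1, 33.3% of the 6 led by replicate 4 and 11.6% of those led by none. The share was 17.7% over all 536 and 19.8% of reference positions of the same kind. In 30 of the 254 (11.8%) the 20 nt were also part of an annotated transcript of another gene, against 2 of the 146 (1.37%). Such sharing was found in 1 of the 44 led by replicate 1 (2.27%) and 3 of the 86 led by none (3.49%). It was found in 0 of the 6 led by replicate 4. Over all 718 members, which include the rDNA genes and 45S matches, the share was 12.7%, and 6.29% over all reference positions.

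Within the 536, 45 members (8.4%) shared an exact stretch of 12 nt or more with 45S, against 1.12% of the reference positions of the same kind. These 45 held 170, 1128, 173 and 287 cDNAs. The share was 15.8% among members led by replicate 2, 16.3% among those led by no library, 1.97% for replicate 3, 0 of 44 for replicate 1 and 3 of 6 for replicate 4. The limit of 17 identical bases thus left out some exact stretches of 45S. The likeness with a missing T in ENSG00000255410 was left out as well, since no gap was allowed.

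The largest of the 536 stood at single bases. LINC02669 held 66, 671, 0 and 50 cDNAs, 772 of 787 at 1 base, in an intron of 2950 nt and 343 nt from an exon. CACNA2D3, an auxiliary subunit of voltage-gated calcium channels, held 57, 327, 2 and 42, with 310 of 428 at the summit. ENSG00000255410 held 23, 339, 0 and 17, and RPS6KA5, a kinase that acts downstream of MAP kinases, 57, 249, 0 and 7. Replicate 2 was highest in each of the 4, and replicate 3 had no cDNA or 2. In CPM the spread exceeded the mean in LINC02669 (396 ± 490), ENSG00000255410 (181 ± 256.1) and RPS6KA5 (155 ± 186; SD, n = 4). RSRP1, an arginine- and serine-rich protein gene, differed in that replicate 3 held 29 cDNAs (231 CPM), close to replicate 2 at 263 CPM, with 8 and 5 cDNAs in replicates 1 and 4. LEXM held 7, 166, 0 and 10.

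**Figure D3:**
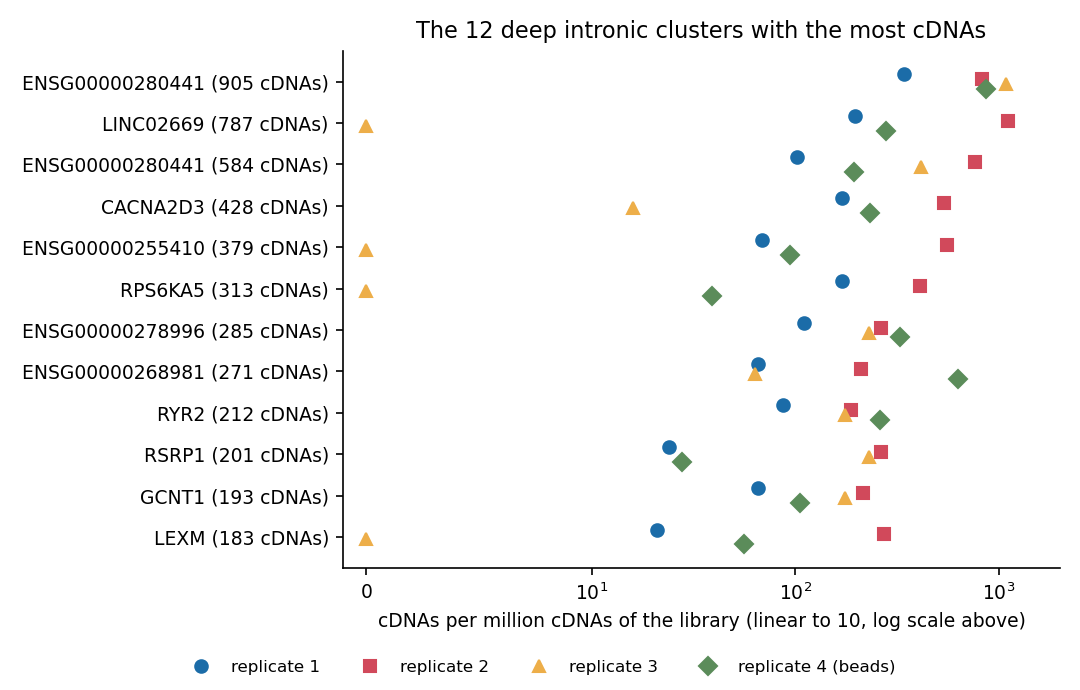
The 12 members with the most cDNAs (rows, pooled cDNAs in brackets) in each library (points), in CPM on an axis that is linear to 10 and logarithmic above. Replicate 3 is at 0 for LINC02669, ENSG00000255410, RPS6KA5 and LEXM, and the lowest library lies at 86.8 for RYR2 and 65.9 for GCNT1.

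A few members resembled mitochondrial RNA or small RNAs. In all, 9 members (1.25%) and 0.417% of reference positions had 17 or more of 20 bases identical to the mitochondrial genome on either strand. Matches to named small RNAs were found in 3 members, in BCO1, ENSG00000254186 and FLJ42969 (0.418%, against 0.266% of reference positions, over 18 small RNAs compared).

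The members were narrower than exonic clusters and held about as many cDNAs. They held a median of 12.5 cDNAs (10 to 905), and 288 of them (40.1%) had 10 or 11, next to the lowest count of any cluster (10). The median member had 3 crosslinked positions over 16 nt and 60% of its cDNAs at the summit. Exonic clusters had a median of 6 positions over 78 nt and 33.3% at the summit, with 13 cDNAs. Clusters outside genes were narrower still, with a median of 4 positions over 5 nt and 55.6% at the summit. In 75 members (10.4%) a single library gave all cDNAs, compared with 2.87% of exonic clusters. All 4 libraries contributed to 131 members (18.2%), and to 18.7% of exonic clusters. The 12 largest members held 26.0% of the members' cDNAs.

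The 8 members with the highest CPM in their lowest library all had a 45S match. They were 2 clusters in ENSG00000280441, 2 in ENSG00000278996 and 1 each in RYR2, GCNT1, ENSG00000268981 and AAMDC. ENSG00000268981 held 22, 127, 8 and 114 cDNAs, with replicate 4 highest at 635 CPM. In the smaller of the pair in ENSG00000278996 the counts were 17, 64, 23 and 8.

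Base composition was compared library by library, between the deep intronic clusters of its own list and its other crosslinked deep positions. The test was an exact two-sided sign-flip permutation test over the 4 libraries, whose smallest possible p is 0.13, so no difference could pass 0.05. Windows at clusters held fewer A (19.8% ± 2.13 against 27.5% ± 1.38, SD, n = 4), lower in 4 of 4 libraries (exact p = 0.13, Benjamini-Hochberg adjusted over 8 measures 0.2). They held more G (27.1% ± 3.43 against 22.9% ± 1.47) and more C (22.9% ± 3.47 against 20.04% ± 1.66), each in 4 of 4 libraries with the same p. Both differences depended on which clusters were kept. Without the rDNA genes the difference was 1.88 percentage points for G (exact p = 0.375) and 1.86 for C (exact p = 0.25), each higher in 3 of 4 libraries, with replicate 1 lower. With runs and 45S matches left out as well, the difference was 4.75 for G and 3.2 for C, above 4.22 and 2.81 with every cluster kept. With every cluster kept but without replicate 4, the difference in C was 1.82. U did not keep 1 direction. Clusters of replicate 1 held 39.9% U against 31.9%, clusters of replicate 4 held 22.5% against 26.5%, and the mean difference was 0.62 ± 5.17 percentage points (exact p = 1, adjusted 1).

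The bases around the summit were then followed one by one for the 536 members with neither run nor match. They were set beside the 34732 reference positions that also had neither. U was most frequent at the base after the summit, in 44.4% of members and 44.1% of reference positions. On either side of that base U was less frequent in members, with 35.6% against 39.1% at the crosslinked base itself and 36.2% against 41.9% at 2 nt after it. G was found at 5 nt after the summit in 33.4% of members and 25.9% of reference positions, and at 6 nt in 30.2% and 29.5%. The gap in G thus differed from base to base. Both sets pool the libraries, which weighed unequally in them. Replicate 3 led 254 of the 536 members but had a cDNA at 1709 of these reference positions. Replicates 1, 2 and 4 had one at 12807, 14238 and 6120. What this mix of libraries adds to the gaps was not tested.

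**Figure D4:**
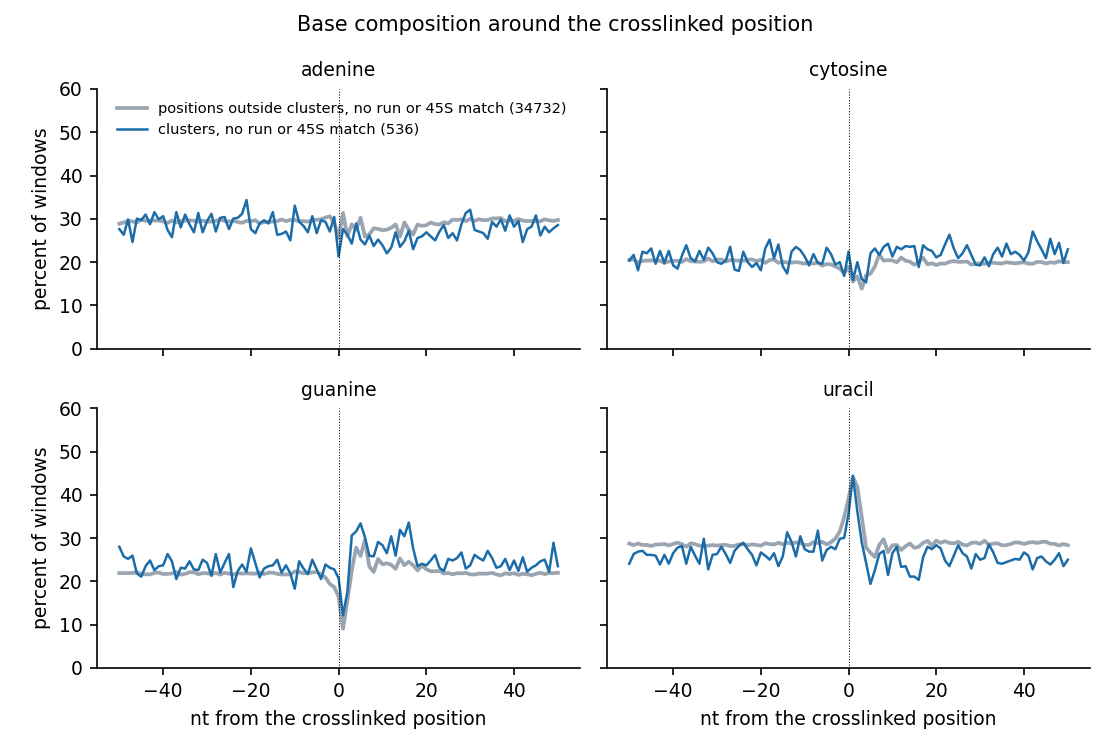
Percent of windows with each base (4 panels) by distance in nt from the crosslinked position, for the 536 clusters (blue) and the 34732 crosslinked deep positions outside clusters (grey) with no run and no 45S match. Both lines have a U peak just after position 0, at 44.4% and 44.1%, and guanine at 5 nt is at 33.4% in blue and 25.9% in grey. Each line pools the libraries, whose parts differ between the lines.

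GANGA, a GA-rich pentamer with any base in the middle, was found in 15.2% of member windows, 14.8% of reference windows and 31.8% of exonic cluster windows. By library, own-list clusters held it in 10.6% ± 3.91 and reference positions in 14.5% ± 1.22 (SD, n = 4), lower in 3 of 4 libraries (exact p = 0.25, adjusted 0.286). The 6 members with the most GANGA starts among those with a cDNA in every library had 1 start each, so the number of starts did not rank them. Among the 6, those in RYR2, AAMDC, ENSG00000280441 and IQGAP1 also had a 45S match. Those in PDGFC, a platelet-derived growth factor, EVC2, a ciliary protein gene, and IQGAP1 are printed with the GANGA copy in capitals.
PDGFC (chr4:156816586-156816621, minus strand): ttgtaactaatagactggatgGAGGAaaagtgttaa
EVC2 (chr4:5549506-5549541, minus strand): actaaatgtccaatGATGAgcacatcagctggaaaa
IQGAP1 (chr15:90402761-90402796, plus strand): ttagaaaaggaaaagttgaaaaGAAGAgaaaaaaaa
PDGFC held 5, 16, 3 and 5 cDNAs, and EVC2 4, 16, 6 and 1. PDGFC had 23.3 ± 5.78 CPM and EVC2 22.9 ± 18.7 CPM (SD, n = 4), so the libraries lay closer together in PDGFC.

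All possible pentamers were compared in the same way, as the share of windows that hold a pentamer. Of these, 103 (10.1%) were at least 2-fold more frequent in member windows than in reference windows, and 98 of the 103 contained the dinucleotide CG, as do 244 of all possible pentamers. The ratio was 5.56 for CGGCG, found in 27 members. The next were 4.33 for ACGCG, with 9 members, then 4.27 for ACCGA, with 14 members, and 4.22 for CGACG, with 8 members. The ratio was 4.21 for CCGGU, seen in 18 members, and 4.10 for UCCGG, seen in 21 members. It was 4.07 for CGACC, in 13 members, and 4.06 for UUCCG, in 22 members. Without runs, 45S matches and rDNA genes 104 pentamers (10.2%) passed, 97 of them with CG, and CGACG was highest (8 members, ratio 6.09). The lowest ratio, 0.092, was that of CCUUA, in 1 member. Next came UUAUC, in 2 members, and UCGCA was in no member window and in 0.403% of reference windows. The ratio was 0.25 for UAUCC, in 3 members. Among the 4 forms of GANGA, the one with CG, GACGA, had a ratio of 3.17, with 13 members, and was the one past 2-fold. The ratio was 0.75 for GAAGA, with 40 members, then 1.04 for GAGGA, with 39 members, and 1.01 for GAUGA, with 24 members. The pentamers with the highest ratios were each seen in at most 27 of the 718 windows. The ratios pool the libraries, which weighed unequally in members and reference positions, and the part of this mix was not tested.

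Intron length was compared first with every reference position counted once, so that genes with many crosslinked positions weighed more. The median intron was 21861 nt for members (549 to 1240120) and 36872 nt for reference positions. Introns under 5000 nt held 13.8% of members, those of 5000 to 50000 nt held 59.2%, and longer ones 27%, while the reference shares were 10.7%, 45.6% and 43.8%. By library, the median log10 intron length was 4.34 ± 0.05 at own-list clusters and 4.56 ± 0.06 at reference positions (SD, n = 4). It was lower in 4 of 4 libraries, by 0.22 ± 0.09 (exact p = 0.13, adjusted 0.2). With 1 cluster per gene and each gene given equal weight in the reference, the difference was -0.0011 ± 0.16 (SD, n = 4, exact p = 1), so the shorter introns were not seen once genes weighed alike. This weighting was chosen after seeing the data. Where isoforms differ, the shortest annotated intron around the summit was used.

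The nearest exon edge was a median of 3288 nt away for members (201 to 132494) and 5237 nt for reference positions. In 151 members (21%) it was over 10000 nt away, and in 34.8% of reference positions. Over libraries the log10 distance was 3.59 ± 0.08 at own-list clusters and 3.72 ± 0.04 at reference positions (SD, n = 4), lower in 4 of 4 (exact p = 0.13, adjusted 0.2). With equal weight per gene the difference turned to 0.059 ± 0.16 (exact p = 0.625). Cut into 5 equal stretches from the 5′ to the 3′ end, the introns held 161, 151, 137, 157 and 112 members, so the last stretch held the fewest, as it did for reference positions (14.1% of them). The mean place was 0.49 ± 0.03 of the intron at own-list clusters and 0.46 ± 0.01 at reference positions (exact p = 0.25, adjusted 0.286). Of 649 members inside an intron of the canonical transcript, 217 (33.4%) lay in the first intron, against 29.1% of reference positions.

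**Figure D5:**
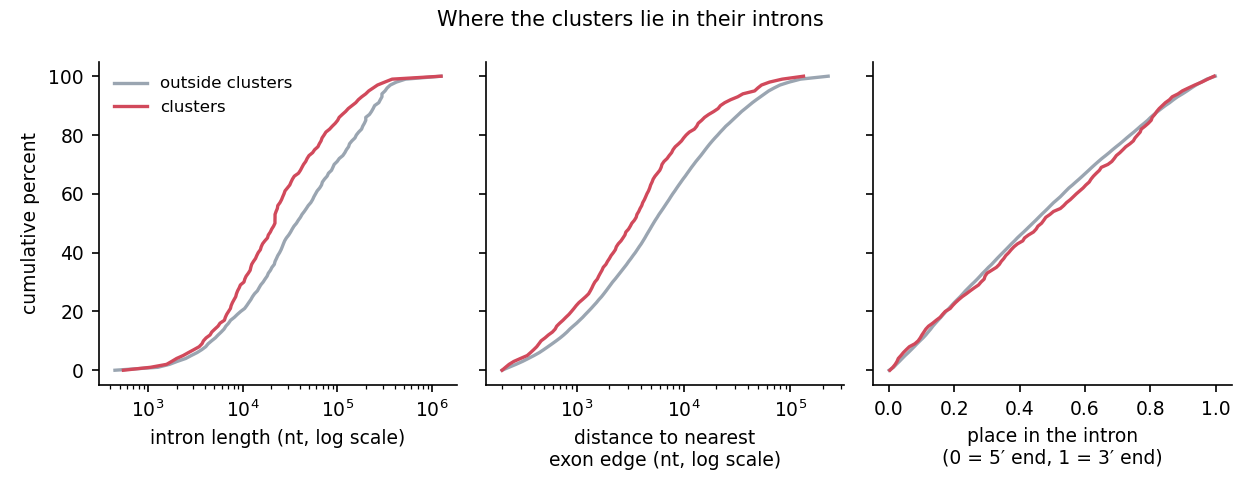
Cumulative percent of the 718 clusters (red) and the 36489 crosslinked deep positions outside clusters (grey) by intron length and by distance to the nearest exon edge (nt, log scales) and by place in the intron (0 is the 5′ end and 1 the 3′ end). Each position counts once, and the red line lies to the left for length and distance, with medians of 21861 against 36872 nt and 3288 against 5237 nt, and close to the grey line for place.

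At the limit itself, the nearest members lay in FANCA (201 nt, 11 cDNAs), a DNA repair gene, ZNF423 (202 nt, 16 cDNAs) and PTMA (204 nt, 19 cDNAs). Those in FANCA came from replicate 3 alone. The intronic clusters just outside the limit lay 199, 198 and 195 nt from an exon edge and held 10, 16 and 72 cDNAs. The 29 members within 300 nt had a median of 12 cDNAs, and the 39 intronic clusters over 100 and up to 200 nt away a median of 13.

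The 718 members lay in 624 genes, 575 of them with 1 member. Protein-coding genes held 551 members, lncRNA genes 162 and pseudogenes 5, and in 87 cases (12.1%) an annotated gene also lay on the other strand. The 497 protein-coding hosts had a median length of 103530 nt, against 27477 nt for all 19970 protein-coding genes. After the pair on chromosome 21, the genes with many members included ANKRD30BL (5), AAMDC and ENSG00000289349 (4 each), and PHKB, SLCO5A1, ANAPC7 and COA1 (3 each). ENSG00000289349 held 13, 11, 25 and 1 cDNAs and COA1, a mitochondrial assembly factor gene, 6, 4, 26 and 2. Both were highest in replicate 3, at 199 and 207 CPM. ANAPC7, a subunit of the anaphase-promoting complex, held 18, 17, 2 and 4, with replicate 1 highest at 53.9 CPM.

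Of all protein-coding genes 2.49% held a member. Among protein-coding genes of 500000 nt or more, 55 of 322 (17.1%) did, with 58 members of median 14.5 cDNAs. The common fragile site list, whose genes are mostly very long, had 4 of 18 (FHIT, PDE4D, RAD51B and WWOX), with 12, 26, 31 and 0 cDNAs. Among the other lists there were 3 of 30 chromatin remodellers (CHD9, HELLS and SMARCA4), 3 of 41 hnRNP and SR protein genes (HNRNPC, PTBP2 and SRSF4) and 2 of 35 ALS-linked genes (ATXN2 and TAF15). ATXN2 and TAF15 together held 25 cDNAs, 15 of them in replicate 3 and 0 in replicate 4, which allows up to 16.7 CPM. Host genes of snoRNAs had 12 of 365 (3.29%), close to the share of all protein-coding genes. Gene length differed between the lists, and its part in these shares was not tested.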

How the data were processed

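The deposited files give, for each library and for the 4 libraries pooled, cDNA counts per crosslinked position and per cluster. Per the labels and the study's methods, the authors mapped reads with STAR (version not given in the sources used here) to GRCh38 with GENCODE 27, kept uniquely mapped reads with at most 2 mismatches, collapsed them by random barcode into cDNA counts and called clusters with iCount at a false discovery rate of 0.05. Unique mapping limits which repeats can appear. Controls were not analysed here.

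Summits were placed on GENCODE 44 and sequence was read from GRCh38. Pre-rRNA coordinates came from RefSeq (GRCh38.p14). CPM are counts scaled to 1000000 cDNAs per library. The exact permutation test flips signs over 4 libraries, and 8 measures were adjusted together. Pentamer shares had 0.5 windows added. Scripts were tested on simulated data (Python 3.11.15, numpy 2.4.6, pandas 2.3.3).

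Members and gene lists were chosen with earlier results of these data known. Named members were the 12 with most cDNAs, the 8 with the highest lowest-library CPM and 3 on either side of the limit. Named genes were taken from the 10 with most members, and 1 of these and 1 gene list are not reported here. The 6 windows with most GANGA starts and the 8 highest and 4 lowest pentamers were also named. The sequence kinds, and the members named to show them, were chosen after values were seen. No repeat annotation was used.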

Additional observations from a re-analysis of the deposited data

Results flagged for a closer look

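Of 31 sets of 4 library values checked, 2 had 1 library far from the others by Dixon's ratio, and chance alone gives about 1 such set in 20. The first was the level of the 9 members with a run of A, C or G. It was 62.9, 90.9, 605 and 16.7 CPM in replicates 1 to 4, and 605 in replicate 3 stood apart. The second was the member in ENSG00000255410, with 561 CPM in replicate 2 against 68.9, 0 and 94.6 in replicates 1, 3 and 4.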

How the results depend on the processing

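Of 134 recomputed values, 118 kept their direction or stayed within the set range, 12 turned direction and 4 moved. The 718 members became 160 with at least 20 cDNAs. Leaving out 1 library gave 360 to 647 members, with 360 without replicate 2 and 382 without replicate 3, so both libraries decided many members. The share of library cDNAs in the members ranged from 1.14% to 1.98% when 1 library was left out. Pentamers past 2-fold rose from 103 to 167 when every deep position of the same introns was the reference. The mean differences in A, C and G kept their sign under all alternatives run, but not their size. A moved from -7.66 to -3.46 with pooled members and G from 4.22 to 8.03 with clusters weighted by cDNAs. C fell from 2.81 to 1.56 with 1 cluster per gene. Without the rDNA genes G was 1.88 and C 1.86. Without runs, 45S matches and rDNA genes G was 4.75 and C 3.2. Intron length (log10) moved from -0.22 to -0.74 against every deep position and to -0.0011 with equal weight per gene. Distance to exons moved from -0.13 to -0.57 against every deep position, to -0.084 without replicate 3, and turned to 0.059 with equal weight per gene. The reference of every deep position used the clusters' own introns, each counted by its number of deep positions. Long introns therefore weighed more in it, so its values for length and distance cannot serve as a check. For U, the difference was -1.48 points with pooled members, -1.68 with clusters weighted by cDNAs, -0.31 against every deep position, -0.75 with windows of 50 nt on either side and -3.13 without runs, 45S matches and rDNA genes. It ranged from -1.83 to 2.16 when 1 library was left out, and replicate 1 decided its sign. GANGA became more frequent at clusters by 0.53 points with pooled members. The place in the intron became -0.012 against every deep position, -0.0086 with 1 cluster per gene, -0.00044 in introns of the canonical transcript and -0.018 without the rDNA genes. The cause was not tested. The alternatives with equal weight per gene and without runs, matches or rDNA genes were chosen after seeing the data. With 4 libraries no difference could pass 0.05. There was no other group of samples to pair the libraries with. The contrast of clusters with reference positions was paired, since it was taken within each library. Depth limits the many members with 10 or 11 cDNAs.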
